A study of Mus musculus with 40 samples.

Results

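Regulatory T cells (Treg) of the gut wall were compared with conventional CD4+ T cells (Tconv) of the same 3 sources, which were the small intestinal intraepithelial layer (IEL), the small intestinal lamina propria (LPL) and the Peyer's patches (PP). All libraries labelled with these 3 sources were taken, which gave 12 of the 40 libraries of the series. There were 3 Treg libraries and 1 Tconv library per source, so 9 Treg libraries were set against 3 Tconv libraries in a model with a term for the source. Cells came from perfused and digested tissue of mice labelled wild type, and all carried a reporter in which Thy1.1 marks cells that express Foxp3. Treg were sorted as CD4+ Foxp3Thy1.1+ cells and Tconv as CD4+ Foxp3Thy1.1- cells, 2000 per library, and their 3′ mRNA was sequenced with the QuantSeq kit. The Tconv gate therefore holds every CD4+ event without the reporter, whatever its helper type. The age and sex of the mice, the number of animals and whether libraries share an animal are not given in the sources used here, so p-values measure the spread between these libraries only. The remaining 28 libraries, which are 12 from blood, spleen and lymph node and 16 from kidney, liver, lung and pancreas, served only to place the gut wall difference beside that of other sources.

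Treg hold back immune responses to food and to gut bacteria, and their identity rests on the transcription factor Foxp3. Part of the intestinal Treg arise in the thymus and express the factors Helios (Ikzf2) and Gata3, while others form in the gut in response to microbes and express Maf. They act through Il10, through TGF-beta that is activated at their surface, through Ctla4, and through uptake of IL-2 by the receptor chain Il2ra. The intraepithelial layer also houses many CD8 and gamma delta T cells, and the Peyer's patches hold B cell follicles with follicular helper T cells.

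Total counts ran from 16799866 to 28823493 over the 12 libraries, and 17492 to 19167 genes had at least 1 count. Levels are given as CPM, a count scaled to the same library total after TMM normalization. Foxp3 (ENSMUSG00000039521.13, chrX:7573644-7595245 of mm10, plus strand) is the gene that the sort used and checks the labels. Its level was 0.158 CPM in IEL Tconv, 0.635 CPM in LPL Tconv and 0.489 CPM in PP Tconv, and the 9 Treg libraries ran from 211 over a median of 272 to 306 CPM. Every library thus stood on the side its label gives. The CD4 gate was checked with Cd4, the co-receptor of helper T cells, which stood at 967, 834 and 1249 CPM in IEL, LPL and PP Tconv and at 801 to 1189 CPM in Treg. Cd3e, a chain of the T cell receptor complex, stood at 1047, 799 and 1050 CPM in the same Tconv and at 642 to 1175 CPM in Treg.

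Some libraries stood apart in genes of other cell types. The summed share of counts in 22 enterocyte markers was 0.262% in LPL Treg replicate 1, 0.187% in IEL Treg replicate 3 and 0.176% in IEL Tconv, and at most 0.0377% in each of the others. Goblet, Paneth and enteroendocrine markers took 0.314% in IEL Tconv, 0.15% in LPL Treg replicate 1 and 0.0943% in PP Tconv, and at most 0.0223% in each of the others. In the PP Treg libraries they took 0.000389% to 0.00338%. Plasma cell markers took 1.52% in LPL Tconv and 0.314% to 0.738% in the LPL Treg libraries, and B cell markers took 0.145% in LPL Tconv and 0.0937% in PP Treg replicate 1. Of the markers tested, 4 of 18 goblet and Paneth, 4 of 17 B cell and 4 of 15 myeloid genes were lower in Treg. In addition 1 B cell gene was higher, and 0 of 22 enterocyte genes passed. Of 11 plasma cell genes 2 were lower and 1 was higher. Over all genes tested 4.4% were higher and 3.73% lower, so a single higher gene is not read as a result about its list. The 12 markers of mast cells and eosinophils were too low to test. Bulk libraries cannot tell fewer cells of a type from less RNA per cell, which holds for every difference below.

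**Figure D1:**
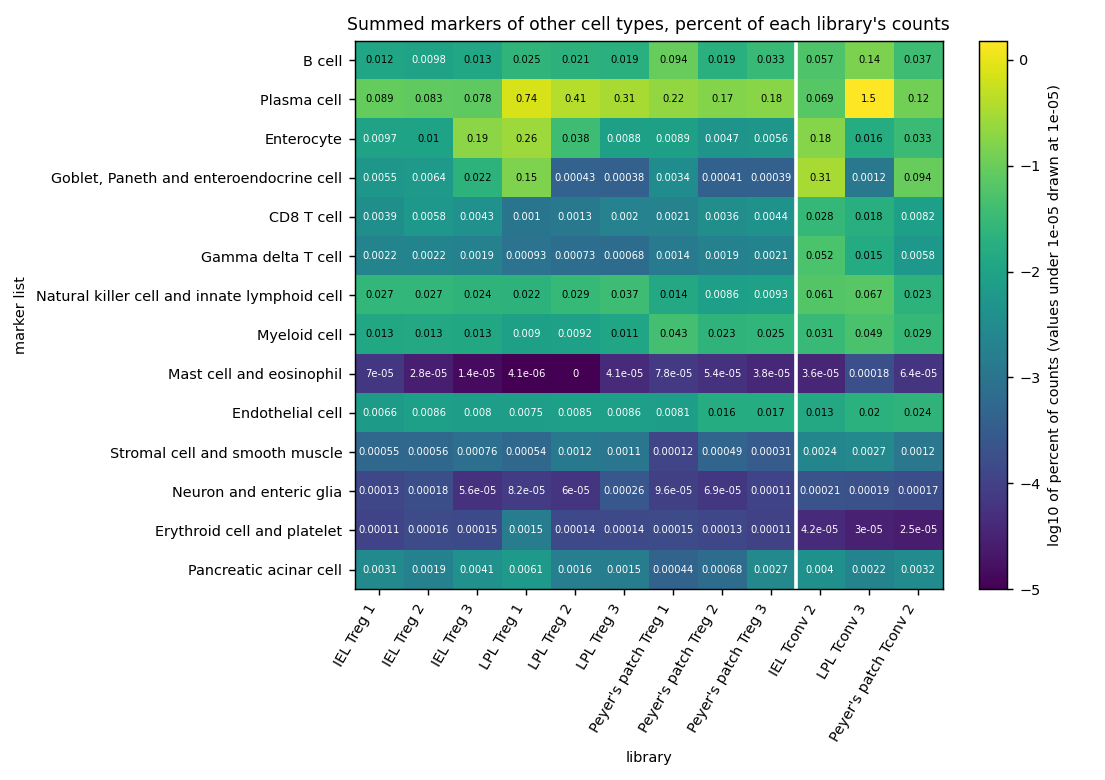
Share of counts in marker lists of other cell types (rows) in the 12 gut wall libraries (columns), in percent of a library's counts on a log10 color scale. The enterocyte row is brightest in LPL Treg replicate 1 (0.262%), IEL Treg replicate 3 (0.187%) and IEL Tconv (0.176%), and the gamma delta and CD8 T cell rows are brighter in the 3 Tconv libraries than in the Treg libraries of the same source.

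Promoter windows are shown for 3 genes on which the results turn: Foxp3, which defines the groups, Cish, a feedback inhibitor of IL-2 receptor signalling that is switched on by STAT5, and Cyp1a1, the classical target gene of the aryl hydrocarbon receptor (Ahr). Each window runs from 250 bases before to 50 bases after a start site (RefSeq, GRCm38.p6) and lies on the plus strand. Foxp3 has 2 such windows, and only the one at the lower coordinate is shown and searched. Capitals mark matches to the Ahr core GCGTG on either strand and to the STAT motif TTCNNNGAA, which reads the same on both strands.
Foxp3, chrX:7579426-7579725: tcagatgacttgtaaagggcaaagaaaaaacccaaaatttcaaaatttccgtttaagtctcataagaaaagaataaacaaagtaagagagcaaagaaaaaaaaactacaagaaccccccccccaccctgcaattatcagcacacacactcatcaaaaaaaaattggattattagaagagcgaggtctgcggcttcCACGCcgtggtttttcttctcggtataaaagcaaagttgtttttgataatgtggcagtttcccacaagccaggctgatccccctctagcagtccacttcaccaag
Cish, chr9:107296409-107296708: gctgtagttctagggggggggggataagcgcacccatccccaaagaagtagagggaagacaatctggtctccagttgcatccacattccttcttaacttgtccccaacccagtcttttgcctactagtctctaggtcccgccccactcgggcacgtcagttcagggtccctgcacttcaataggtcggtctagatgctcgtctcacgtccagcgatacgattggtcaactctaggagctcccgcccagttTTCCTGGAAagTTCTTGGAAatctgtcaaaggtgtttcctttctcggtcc
Cyp1a1, chr9:57697363-57697662: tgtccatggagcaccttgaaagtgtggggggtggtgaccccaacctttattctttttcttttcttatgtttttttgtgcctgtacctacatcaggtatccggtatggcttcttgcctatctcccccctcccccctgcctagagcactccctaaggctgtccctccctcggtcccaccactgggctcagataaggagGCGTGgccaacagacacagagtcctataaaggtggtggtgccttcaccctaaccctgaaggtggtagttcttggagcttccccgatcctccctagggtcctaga
The Foxp3 window shown held 1 GCGTG core, on the minus strand, the Cish window held 2 STAT motifs beside the start site, and the Cyp1a1 window held 1 GCGTG core. GCGTG was present in 32.4% and TTCNNNGAA in 8.3% of 32851 mouse promoter windows of the same length, and a match says nothing of binding.

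Of 16060 genes tested with edgeR's quasi-likelihood test, 1306 (8.13%) had a Benjamini-Hochberg adjusted p below 0.05. In Treg, 707 (4.4%) were higher and 599 (3.73%) were lower, and 329 of the higher genes (2.05%) and 372 of the lower ones (2.32%) changed at least 2-fold. With limma-voom the split turned to 741 higher and 1136 lower. The direction was the same in all 3 sources for 1296 of the 1306 genes. This is largely fixed in advance, because the genes were called from the same libraries. Treg lay on 1 side of the Tconv library in every source for 1439 (8.96%, above) and 1052 (6.55%, below) of all tested genes. Within single sources, with the spread taken from Treg replicates alone, 231 of 19524 genes passed in IEL (1.18%; 158 or 0.809% higher and 73 or 0.374% lower), 483 in LPL (2.47%; 249 or 1.28% and 234 or 1.2%) and 182 in PP (0.932%; 146 or 0.748% and 36 or 0.184%). Among all tested genes, 486 (3.03%) had all 9 Treg libraries above all 3 Tconv libraries and 376 (2.34%) had them all below. The call count was 588 without the IEL, 652 without the LPL and 1035 without the PP Tconv library. Without the 3 libraries highest in enterocyte markers, an alternative added after the data were seen, it was 509, and 1341 when only the 2 Treg libraries among them were left out.

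**Figure D2:**
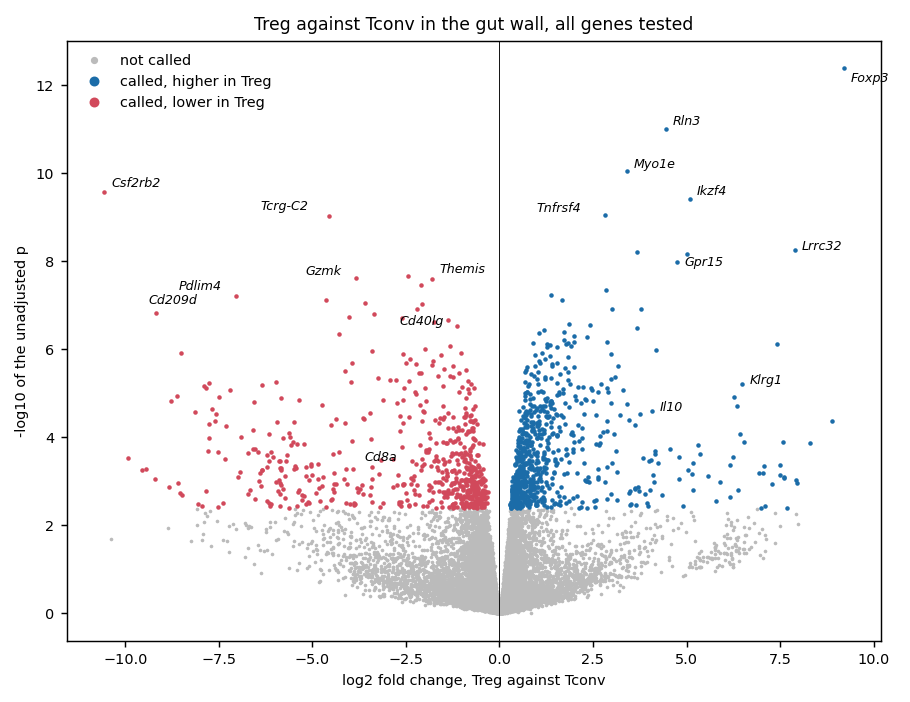
Log2 fold change of Treg over Tconv in the gut wall (x axis) against −log10 of the unadjusted p (y axis) for the 16060 genes tested, with the 1306 called genes colored by direction. Foxp3 lies farthest up on the higher side with a log2 fold change of 9.20, followed by Rln3 at 4.45.

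In a list of 28 Treg signature genes, all tested, 24 rose and 0 fell, with a median log2 fold change of 2.56 beside -0.018 over all genes tested. The counts of this and every later list stand beside 4.4% higher and 3.73% lower over all genes tested. Lrrc32 encodes GARP, which anchors latent TGF-beta on the Treg surface. It stood at 1.16, 3.47 and 0.756 CPM in IEL, LPL and PP Tconv and ran from 162 over a median of 481 to 716 CPM in Treg, with no overlap of the groups (log2 fold change 7.89 ± 0.48 SE, adjusted p = 1.08e-05, edgeR). Ikzf4 encodes Eos, a partner of Foxp3 in gene repression. Its level was 7.81, 3.56 and 7.08 CPM in Tconv and 169.7 to 276 CPM in Treg, again apart (5.09 ± 0.28, adjusted p = 1.23e-06, edgeR). The long non-coding RNA Flicr, which lies beside Foxp3 and is known to modify its expression, stood at 0.422, 0.781 and 0.756 CPM in Tconv and at 11.96 to 33.8 CPM in Treg (5.03 ± 0.36, adjusted p = 1.08e-05, edgeR). Gpr83, Capg and Swap70, further members of the signature, rose by log2 fold changes of 2.76 ± 0.44, 2.90 ± 0.37 and 2.18 ± 0.31. Rgs16, Plagl1, Nrp1 and Socs2 were the 4 members that did not pass, with log2 fold changes from 0.95 (Plagl1) to 2.48 (Nrp1). The count of members that rose ran from 20, without the IEL Tconv library, to 25 when single libraries were left out, and was 19 without the 3 libraries highest in enterocyte markers.

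Outside the lists, Rln3, Myo1e and Syp were named by a rule that took only called genes raised in each source. Rln3, the gene of the peptide relaxin 3, stood at 2.27, 2.64 and 4.58 CPM in IEL, LPL and PP Tconv and at 48.3 to 90.9 CPM in Treg (4.45 ± 0.18, adjusted p = 7.77e-08, edgeR). Myo1e, a class I myosin that links membranes to actin, stood at 18.9, 22.7 and 14.8 CPM in Tconv and at 127 to 369 CPM in Treg (3.40 ± 0.17, adjusted p = 4.87e-07, edgeR). Syp, which encodes the vesicle protein synaptophysin and lies near Foxp3 on the X chromosome, stood at 2.06, 1.51 and 4.58 CPM in Tconv and at 9.84 to 44.4 CPM in Treg (2.84 ± 0.24, adjusted p = 4.54e-05, edgeR). For all 3 genes the groups did not overlap, which the naming rule makes likely.

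Of 18 suppressor genes 17 were tested, of which 14 rose and 0 fell, at a median log2 fold change of 1.37. Il10 (ENSMUSG00000016529.5, chr1:131019845-131024974) encodes the main inhibitory cytokine of intestinal Treg. In IEL it stood at 23.8 CPM in Tconv and at 330, 218 and 249.9 CPM in Treg, in LPL at 39.6 CPM in Tconv and at 669, 736 and 805 CPM in Treg, and in PP at 1.07 CPM in Tconv and at 80.1, 21.5 and 22.0 CPM in Treg. Treg were thus above Tconv within each source, while 2 PP Treg libraries lay below the Tconv of the other sources (4.08 ± 0.55, adjusted p = 0.00185, edgeR). Ebi3, a subunit of IL-35 and IL-27, stood at 0.686, 3.22 and 3.20 CPM in Tconv and at 15.9 to 47.3 CPM in Treg (3.66 ± 0.37, adjusted p = 1.49e-04, edgeR). Nt5e and Entpd1 encode CD73 and CD39, the surface enzymes that turn extracellular ATP into adenosine. Nt5e stood at 186, 189 and 238 CPM in Tconv and at 387 to 743 CPM in Treg (1.37 ± 0.12, adjusted p = 5.48e-05, edgeR), and Entpd1 at 52.7, 49.8 and 10.4 CPM and at 72.0 to 134 CPM (1.59 ± 0.26, adjusted p = 0.00310, edgeR). The groups did not overlap for either enzyme. Fgl2, a secreted fibrinogen-like suppressor protein, was highest in IEL, with 332 CPM in Tconv and a Treg mean of 954 CPM, and lowest in PP, with 28.2 and 127 CPM (1.73 ± 0.18, adjusted p = 1.73e-04, edgeR). Lag3, Gzmb and Lgals1 did not pass, at 1.28 ± 0.36, 0.61 ± 0.38 and 0.12 ± 0.21. Without the IEL Tconv library 9 members rose, and the 5 genes not called then were Areg, Tigit, Cd274, Itgb8 and Tgfb1, at edgeR adjusted p from 0.084 (Cd274) to 0.185 (Areg).

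Of 18 factors tied to thymic or peripheral Treg, 5 rose (Ikzf2, Klrg1, Gata3, Il1rl1 and Nfil3), 0 fell and 13 did not pass, at a median log2 fold change of 0.53. Klrg1, a receptor for cadherins found on differentiated Treg, stood at 1.21, 2.34 and 0.534 CPM in IEL, LPL and PP Tconv. In Treg it stood at 62.8, 46.4 and 99.1 CPM in IEL, at 281, 352 and 506 CPM in LPL and at 66.3, 30.3 and 11.96 CPM in PP, so that all 9 lay above all Tconv and the LPL libraries were the highest (6.49 ± 0.74, adjusted p = 8.18e-04, edgeR). Il1rl1, the IL-33 receptor ST2, followed the same order of sources, with Treg means of 33.0, 152 and 18.7 CPM in IEL, LPL and PP beside 4.17, 14.5 and 0.223 CPM in Tconv (3.63 ± 0.55, adjusted p = 0.00276, edgeR). Gata3 stood at 142, 222 and 118 CPM in Tconv and at 238 to 939 CPM in Treg (1.42 ± 0.21, adjusted p = 0.00141, edgeR). Ikzf2 stood at 56.3, 46.9 and 78.8 CPM in Tconv and at 212 to 572 CPM in Treg (2.70 ± 0.33, adjusted p = 8.18e-04, edgeR). Maf, a factor tied to microbe-induced Treg, did not pass, at 0.42 ± 0.20. Nfil3 was not called without any of 9 single libraries (adjusted p from 0.0512, without LPL Treg replicate 1, to 0.205, without IEL Tconv).

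Of 20 helper cytokines 15 were tested, of which 6 fell (Il21, Ifng, Il2, Il17a, Il17f and Il22) 3 rose (Il10, Csf1 and Osm) and 6 did not pass. Il21, a helper cytokine for B cells, stood at 117, 60.2 and 111 CPM in IEL, LPL and PP Tconv and ran from 2.09 over 10.5 to 14.6 CPM in Treg, with no overlap (-3.34 ± 0.30, adjusted p = 9.54e-05, edgeR). Ifng, the cytokine of type 1 helper cells, stood at 62.6, 93.6 and 2.89 CPM in Tconv, at means of 17.7 and 20.2 CPM in IEL and LPL Treg, and at 0.0965 to 0.147 CPM in the PP Treg libraries (-2.76 ± 0.35, adjusted p = 7.29e-04, edgeR). Il17a, Il17f and Il22, the cytokines of type 17 cells, were concentrated in the LPL Tconv library, with 166, 45.5 and 151 CPM there beside at most 13.9 CPM in the other Tconv libraries and at most 14.3 CPM in any Treg library. Their log2 fold changes were -3.90 ± 0.77, -5.49 ± 1.13 and -5.00 ± 1.02. None of the 3 was called without the LPL Tconv library (adjusted p 0.151, 0.0916 and 0.0519) or without the PP Tconv library (0.0575, 0.115 and 0.0604). Il2 stood at 5.22, 10.3 and 1.38 CPM in Tconv and at 0 to 0.711 CPM in Treg, and lost its call without any 1 Tconv library (adjusted p 0.0555 without IEL, 0.0703 without LPL and 0.0865 without PP). Counts of falling cytokines were 2 without the LPL and 2 without the PP Tconv library. Csf1, the macrophage growth factor, rose from 3.96, 3.71 and 12.7 CPM in Tconv to 18.03 to 48.3 CPM in Treg (2.31 ± 0.33, adjusted p = 0.00132, edgeR). Osm lost its call without any of 10 single libraries (edgeR adjusted p up to 0.267, without IEL Tconv). Of 18 lineage factors of helper cells 3 rose and 0 fell, and Tbx21, the factor of type 1 helper cells, did not pass, at 376, 503 and 16.4 CPM in Tconv and 7.62 to 239 CPM in Treg (adjusted p = 0.0869, edgeR).

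**Figure D3:**
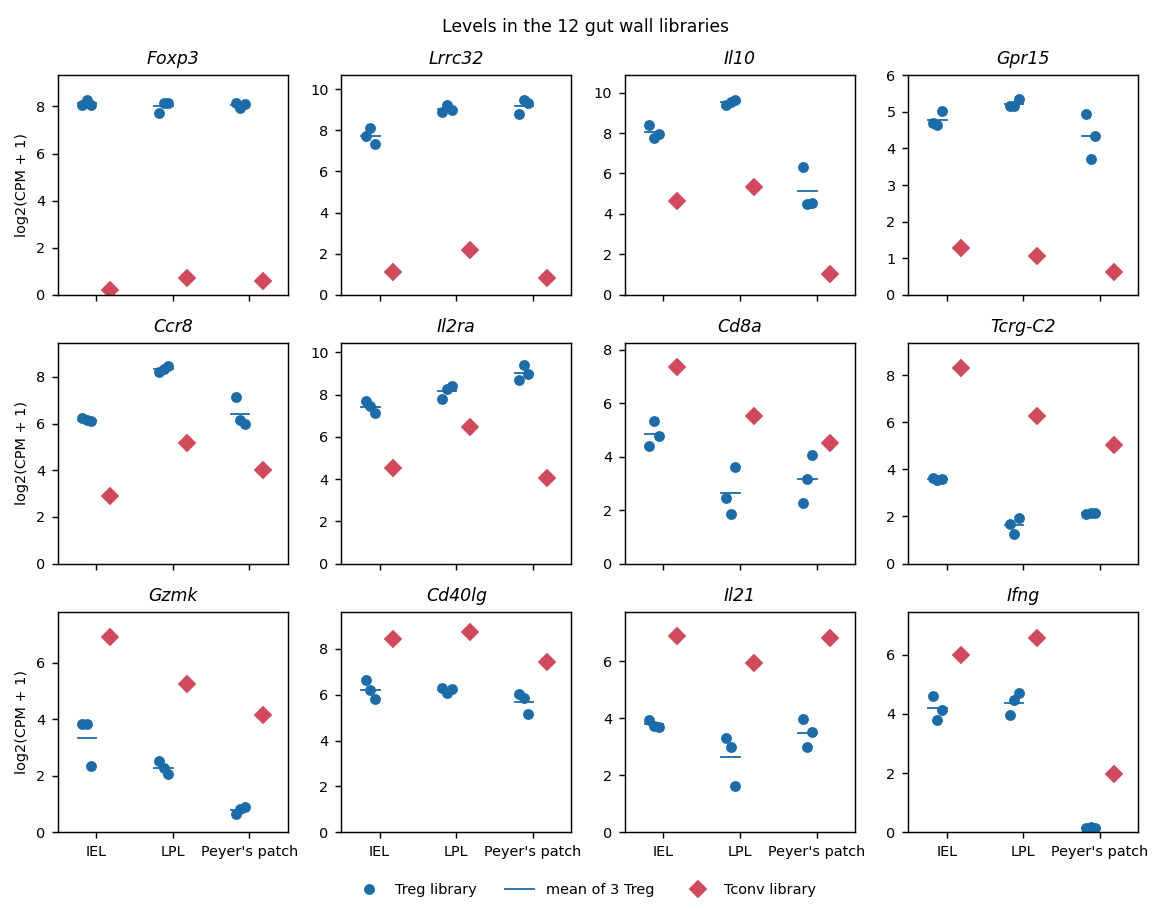
Level of 12 genes, as log2(CPM + 1), in each of the 12 gut wall libraries, by source and cell type, with 1 point per library. Foxp3, Lrrc32, Gpr15 and Ccr8 have all Treg points above all Tconv points, Tcrg-C2, Gzmk, Cd40lg and Il21 have them all below, and Il10 and Cd8a overlap across sources.

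Of 20 genes that mark conventional T cells, 14 fell, 0 rose and 6 did not pass, with a median log2 fold change of -1.78. Cd40lg, the ligand with which helper cells activate B cells and dendritic cells, stood at 337, 416 and 171 CPM in IEL, LPL and PP Tconv and at 34.6 to 98.9 CPM in Treg, without overlap (-2.20 ± 0.20, adjusted p = 7.96e-05, edgeR). Themis, a regulator of T cell receptor signals, stood at 249, 283 and 231 CPM in Tconv and at 53.7 to 94.7 CPM in Treg (-1.81 ± 0.14, adjusted p = 2.88e-05, edgeR). Pde7a, a cAMP-degrading enzyme, stood at 399, 378 and 113 CPM and at 39.7 to 84.6 CPM (-2.06 ± 0.18, adjusted p = 6.78e-05, edgeR). Tcf7, the factor TCF1, fell within each source from 948, 1000 and 2931 CPM in Tconv to means of 372, 345 and 1430 CPM in Treg, and PP was the highest source in both cell types (-1.36 ± 0.13, adjusted p = 1.15e-04, edgeR). Il7r, the receptor chain of the survival cytokine IL-7, fell from 527, 856 and 269 CPM to means of 112, 359.6 and 92.3 CPM (-1.75 ± 0.17, adjusted p = 1.24e-04, edgeR). Lmo4, a LIM-domain adaptor outside the list, stood at 43.1, 147 and 62.5 CPM in Tconv and at 9.37 to 22.4 CPM in Treg (-2.46 ± 0.20, adjusted p = 2.88e-05, edgeR). The count of members that fell ran from 11, without the IEL or the LPL Tconv library, to 14. Without the 3 libraries highest in enterocyte markers 13 fell. Among 20 genes of resting and recirculating T cells 8 fell, 4 of them called without the LPL Tconv library, and Foxo1 rose (0.66 ± 0.10). S1pr1, a receptor that lets cells leave lymphoid organs, and Klf2, the factor that maintains it, did not pass, at -0.26 ± 0.30 and 0.16 ± 0.23.

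Of 24 cytotoxic genes 20 were tested, of which 13 fell, 0 rose and 7 did not pass, at a median log2 fold change of -1.87. Gzmk, the granule protease granzyme K, stood at 119, 37.0 and 16.7 CPM in IEL, LPL and PP Tconv and ran from 0.579 over 3.81 to 13.4 CPM in Treg, with no overlap (-3.83 ± 0.31, adjusted p = 2.88e-05, edgeR). Ccl5, a chemokine of cytotoxic and memory T cells, fell from 1372, 288 and 128 CPM to means of 276, 77.4 and 25.9 CPM (-2.22 ± 0.25, adjusted p = 4.68e-04, edgeR). Granzymes A and B did not follow. Gzmb stood at 2890, 746 and 206 CPM in Tconv and at means of 3629, 1873 and 277 CPM in Treg (0.61 ± 0.38, adjusted p = 0.394, edgeR), and Gzma differed by -0.27 ± 0.39 (adjusted p = 0.757, edgeR). The count that fell was 9 without the IEL Tconv library and 8 without the LPL Tconv library, and 7 without the 3 libraries highest in enterocyte markers.

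Cd8a (ENSMUSG00000053977.13, chr6:71373427-71379173), the CD8 alpha chain, stood at 163 CPM in IEL Tconv, 44.8 CPM in LPL Tconv and 21.9 CPM in PP Tconv. IEL Treg had 19.97, 39.2 and 26.7 CPM, LPL Treg 4.52, 2.65 and 11.3 CPM, and PP Treg 3.81, 8.001 and 15.7 CPM, so Treg were below Tconv in each source but IEL Treg overlapped PP Tconv (-2.35 ± 0.45, adjusted p = 0.00987, edgeR). In edgeR the call was lost without the IEL Tconv library (adjusted p = 0.0811) and without the LPL Tconv library (0.0985). Cd8b1, the beta chain, stood at 84.1, 126 and 52.1 CPM in Tconv and at 5.35 to 27.8 CPM in Treg, without overlap (-2.73 ± 0.38, adjusted p = 0.00145, edgeR). Tcrg-C2, a constant gene of the gamma T cell receptor chain, stood at 314, 75.0 and 31.9 CPM in Tconv and at 1.36 to 11.4 CPM in Treg (-4.56 ± 0.27, adjusted p = 2.14e-06, edgeR). Tcrg-C1 and Tcrg-C4 fell by 4.51 ± 0.71 and 4.12 ± 0.50 on the log2 scale. Some constant genes of this chain are close copies of one another, and the counting may have split reads between such copies. Which of these genes that affected was not tested, so the values of each are uncertain. Trdc, the constant gene of the delta chain, stood at 12.8, 5.62 and 7.12 CPM in Tconv and at 0.958 to 8.97 CPM in Treg and did not pass (-0.93 ± 0.43, adjusted p = 0.236, edgeR).

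Of 18 CD8 and innate-like genes 11 fell and 3 rose, the latter being Ikzf2, Gpr55 (0.84 ± 0.15) and Hopx (1.80 ± 0.34). The count that fell was 7 without the LPL Tconv library, where Hopx was not called either (edgeR adjusted p = 0.0689), and 5 without the 3 libraries highest in enterocyte markers. With every marker of another cell type taken out of the test, 3 members rose and 2 fell, at a median of -0.085. That setting deletes list members that are themselves such markers. The lower count and the shifted median follow in part from this deletion and say nothing of the cells present. Lists of other cell types also differed, but they share members with this list, among them Tcrg-C4 and Cd7. Their values are therefore not separate information. The 5 gamma delta T cell markers summed to 0.00584% to 0.0523% of counts in Tconv and to 0.000684% to 0.00222% in Treg, with 3 called lower. The 2 CD8 T cell markers summed to 0.00823% to 0.0279% in Tconv and to 0.00102% to 0.00578% in Treg. The 13 markers of natural killer and innate lymphoid cells summed to 0.0228% to 0.0672% in Tconv and to 0.0086% to 0.0371% in Treg, with 9 tested, 6 lower and 1 higher, and Klra4, Klra8 and Klra9 at 0 in all 12 libraries. Their part in the cytotoxic and innate-like differences was not tested.

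A pair of the genes with the smallest p-values on the lower side had almost no counts in Treg. Csf2rb2, a beta chain of the mouse IL-3 receptor, had 2 counts over the 9 Treg libraries and 1239 over the 3 Tconv libraries, at 21.6, 31.6 and 8.10 CPM. Cd209d, a C-type lectin gene of the DC-SIGN family, had 10 and 827 counts. Both have close paralogs that may share reads. A list of 16 genes of plasmacytoid dendritic cells, chosen after these values were seen, Cd209d among them, held 0.0996%, 0.166% and 0.0455% of counts in IEL, LPL and PP Tconv and 0.03% to 0.0379% in Treg, and 10 of its genes, again with Cd209d, were lower and 0 higher. Siglech, a defining receptor of these cells, stood at 114, 255 and 31.4 CPM in Tconv and at 0 to 2.40 CPM in Treg. For Cd209d the list is therefore not separate information, and its part in the Csf2rb2 counts was not tested.

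Homing receptors differed member by member. Of 26 tested 7 rose and 3 fell, at a median log2 fold change of 0.16. Gpr15 (ENSMUSG00000047293.7, chr16:58717433-58719070, minus strand) encodes a receptor that draws Treg to the large intestine of mice. It stood at 1.43, 1.07 and 0.534 CPM in IEL, LPL and PP Tconv. In Treg it stood at 25.1, 23.8 and 31.7 CPM in IEL, at 35.1, 35.0 and 39.5 CPM in LPL and at 29.6, 12.2 and 19.3 CPM in PP, so that all 9 lay above all Tconv (4.76 ± 0.35, adjusted p = 1.55e-05, edgeR). Ccr8, a chemokine receptor of tissue Treg, stood at 6.54, 35.2 and 14.9 CPM in Tconv and at means of 70.5, 323 and 90.1 CPM in Treg, highest in LPL in both cell types (2.999 ± 0.27, adjusted p = 7.96e-05, edgeR). Ccr4 rose by 1.54 ± 0.18. The integrin chains Itga4 and Itgb7, which pair to form the gut homing integrin, rose by 0.67 ± 0.11 and 0.63 ± 0.10, with no overlap of the groups for either. Itgae, the CD103 chain that binds E-cadherin on epithelium, stood at 825, 241 and 89.5 CPM in Tconv and at means of 1486, 810.4 and 479 CPM in Treg (1.55 ± 0.24, adjusted p = 0.00209, edgeR). Ccr9, the receptor for the small intestinal chemokine, stood at 1041, 948 and 74.0 CPM in Tconv and at means of 1693, 990.3 and 243 CPM in Treg and did not pass (0.69 ± 0.25, adjusted p = 0.125, edgeR). Itga1, Cxcr6 and Itgal, which were lower at -3.42 ± 0.67, -1.23 ± 0.28 and -0.40 ± 0.10, all lost their calls without the IEL Tconv library (edgeR adjusted p 0.0593, 0.0816 and 0.32) and without the LPL Tconv library (0.0556, 0.182 and 0.206). Itga1 was also lost without the PP Tconv library (0.0677), and Itgal without any of 6 Treg libraries (0.0512 to 0.0752). Ccr2, at 1.80 ± 0.38, lost its call without the IEL Tconv library (0.109).

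Of 19 TNF superfamily receptors tested of 20 listed 8 rose, 0 fell and 11 did not pass. Of 12 ligands tested of 15 listed 4 fell, 0 rose and 8 did not pass. Tnfrsf4, which encodes OX40, stood at 47.8, 172 and 73.5 CPM in IEL, LPL and PP Tconv and at 373 to 1376 CPM in Treg (2.81 ± 0.17, adjusted p = 2.14e-06, edgeR). Tnfrsf18, which encodes GITR, stood at 57.1, 134 and 64.4 CPM in Tconv and at 208 to 459.6 CPM in Treg (1.85 ± 0.18, adjusted p = 1.33e-04, edgeR). Tnfrsf9, which encodes 4-1BB, stood at 42.7, 36.0 and 102 CPM in Tconv and at 393 to 1189 CPM in Treg (3.29 ± 0.41, adjusted p = 9.72e-04, edgeR). None of these 3 costimulatory receptors overlapped between groups. Tnfrsf1b, the TNF receptor that favors Treg expansion, rose within each source from 471, 1073 and 149.6 CPM to means of 1403, 2550 and 941 CPM (1.71 ± 0.23, adjusted p = 9.17e-04, edgeR). On the ligand side Tnfsf8 (CD30 ligand) fell by 1.79 ± 0.21 and Fasl (Fas ligand) by 1.61 ± 0.26 on the log2 scale, beside Cd40lg. Tnfsf14 lost its call without the IEL or the LPL Tconv library (adjusted p 0.136 and 0.171), Cd27 without the IEL Tconv library (0.0613) and Fas without the LPL Tconv library (0.113).

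Of 20 genes of the IL-2 receptor and STAT5 list 9 rose, 1, Il7r, fell and 10 did not pass, at a median log2 fold change of 0.65. Il2ra, the high-affinity chain CD25, stood at 21.9, 86.4 and 15.8 CPM in IEL, LPL and PP Tconv. In Treg it stood at 204, 174 and 137 CPM in IEL, at 224, 308 and 336 CPM in LPL and at 406, 669 and 507 CPM in PP, with no overlap (2.88 ± 0.56, adjusted p = 0.0126, edgeR), and it lost its call without the IEL Tconv library (0.0834). Stat5a and Stat5b, the factors that this receptor activates, rose by 0.87 ± 0.13 and 0.67 ± 0.10, and the kinase gene Jak3 by 0.64 ± 0.10, each without overlap. Cish stood at 159, 188 and 28.4 CPM in Tconv and at means of 375, 412 and 182 CPM in Treg (1.54 ± 0.30, adjusted p = 0.0106, edgeR). The count that rose was 5 without the IEL Tconv library, 5 without the LPL Tconv library and 6 without the PP Tconv library.

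Inhibitory and costimulatory receptors of the CD28 and checkpoint families showed 10 of 20 higher and 2 lower. Ctla4, which takes CD80 and CD86 off antigen-presenting cells, stood at 560.1, 974 and 107 CPM in IEL, LPL and PP Tconv and at means of 2232, 2973 and 676 CPM in Treg, above Tconv within each source (2.004 ± 0.34, adjusted p = 0.00515, edgeR). Cd6, a receptor for CD166, rose by 0.60 ± 0.11 without overlap. The 2 lower genes were Cd160 (-1.07 ± 0.15) and Cd244a (-2.48 ± 0.61). In edgeR Cd244a lost its call without the IEL Tconv library (adjusted p = 0.152), the PP Tconv library (0.171), IEL Treg replicate 2 (0.0558), LPL Treg replicate 3 (0.0501) or PP Treg replicate 2 (0.056). The count that rose was 5 without the IEL Tconv library and 5 without the LPL Tconv library, with Icos (adjusted p 0.202 and 0.0956) among the calls lost in both cases. Icos was also lost without IEL Treg replicate 2 (0.0518), LPL Treg replicate 2 (0.0528) or LPL Treg replicate 3 (0.0546).

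Receptors for cytokines moved in both directions, with 10 of 27 tested (28 listed) higher and 5 lower. Il10ra and Il10rb, the chains of the IL-10 receptor, rose by 1.081 ± 0.16 and 0.96 ± 0.11. Il10rb stood at 38.95, 25.1 and 44.8 CPM in IEL, LPL and PP Tconv and at 52.5 to 101 CPM in Treg, with no overlap. Il1r1, the receptor that favors type 17 responses, stood at 16.8, 69.6 and 44.7 CPM in Tconv and at 2.51 to 12.2 CPM in Treg (-2.42 ± 0.38, adjusted p = 0.00218, edgeR). Tgfbr3, the TGF-beta co-receptor betaglycan, stood at 81.7, 69.6 and 129 CPM in Tconv and at 1.87 to 29.3 CPM in Treg (-3.59 ± 0.31, adjusted p = 6.78e-05, edgeR), and the signalling receptor gene Tgfbr2 at 791, 752 and 886 CPM and at 384 to 658 CPM (-0.69 ± 0.11, adjusted p = 0.00259, edgeR). In the TGF-beta list of 20 genes these were the 2 that fell, while 8 rose. Itgb8, whose integrin releases active TGF-beta, rose from 6.33, 3.12 and 11.7 CPM in Tconv to 25.0 to 159 CPM in Treg (3.14 ± 0.63, adjusted p = 0.0147, edgeR), and its partner chain Itgav by 1.48 ± 0.29. Skil, a feedback inhibitor of the pathway, rose by 0.94 ± 0.11. Without the IEL Tconv library 4 receptors and 5 TGF-beta genes rose, and Itgb8 was not called (edgeR adjusted p = 0.0851). Without the PP Tconv library 6 cytokine receptors rose and 3 fell, and without the LPL Tconv library 3 fell.

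Of 25 genes that sense the gut environment 22 were tested, of which 5 rose and 0 fell. Adora2a, the adenosine receptor, stood at 50.7, 121 and 38.1 CPM in IEL, LPL and PP Tconv and at means of 183, 415 and 83.6 CPM in Treg (1.52 ± 0.20, adjusted p = 8.05e-04, edgeR). Ptger2, a prostaglandin E2 receptor, rose by 1.32 ± 0.23 and Rxra, a retinoid receptor, by 0.87 ± 0.15. Hif1a, the hypoxia factor, was not called without the IEL or the LPL Tconv library (adjusted p 0.14 and 0.168). Ahr itself did not pass over the 3 sources (0.54 ± 0.33, adjusted p = 0.399, edgeR).

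Signalling lists differed in how far they moved. Of 20 NF-kB genes 9 rose and 0 fell, at a median log2 fold change of 0.68, and the 4 members with the smallest p were Tnip1 (0.71 ± 0.09), Birc3 (0.77 ± 0.10), Traf1 (0.80 ± 0.12) and Nfkb2 (0.73 ± 0.12). The count was 4 without the IEL Tconv library, 5 without the LPL Tconv library and 6 without IEL Treg replicate 1, IEL Treg replicate 2, LPL Treg replicate 2 or LPL Treg replicate 3. Of 30 genes of T cell receptor signalling 2 rose and 5 fell, with 1 in each direction without the IEL or without the LPL Tconv library. The number that fell was 3 without the PP Tconv library, LPL Treg replicate 2 or LPL Treg replicate 3, and 2 without IEL Treg replicate 3, LPL Treg replicate 1 or PP Treg replicate 2. Of 29 interferon-stimulated genes 7 rose and 0 fell. Gbp7, a guanylate-binding protein of cell-autonomous defence, stood at 145, 109.8 and 84.2 CPM in IEL, LPL and PP Tconv and at 174 to 324 CPM in Treg (1.06 ± 0.11, adjusted p = 1.83e-04, edgeR), and Oas1a, a sensor of double-stranded RNA, at 8.07, 7.13 and 8.68 CPM and at 18.6 to 34.2 CPM (1.62 ± 0.20, adjusted p = 6.14e-04, edgeR). The interferon count was 4 without the IEL Tconv library.

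In metabolism the lactate exporter Slc16a3 stood at 8.76, 14.0 and 9.12 CPM in IEL, LPL and PP Tconv and at 24.6 to 87.3 CPM in Treg (2.23 ± 0.30, adjusted p = 8.87e-04, edgeR), and the glucose transporter Slc2a3 rose by 1.38 ± 0.20. These were 2 of 3 genes of glucose use that rose, of 19 tested (5 without PP Treg replicate 1 and 6 without PP Treg replicate 2). Of 29 ribosomal protein genes 10 fell and 0 rose, at a median of -0.56. That count was 0 without the IEL or without the LPL Tconv library and 25 without PP Treg replicate 1. It was 4 without IEL Treg replicate 1, LPL Treg replicate 2 or LPL Treg replicate 3, and 5 without PP Treg replicate 2 or PP Treg replicate 3. Of 25 cell cycle genes 1 (Mcm6) rose and 3 fell, the latter from 0, without LPL Treg replicate 3, to 5, without LPL Treg replicate 1. The number that fell was 1 without the IEL or the PP Tconv library, IEL Treg replicate 1, IEL Treg replicate 2 or PP Treg replicate 2, and Mcm6 was lost without any of 7 single libraries (edgeR adjusted p from 0.0512 to 0.151). Of 25 early response genes 3 rose and 0 fell, with 0 called without the IEL or the PP Tconv library and 5 without PP Treg replicate 1. Of 24 genes of sterol and fatty acid synthesis 0 rose and 2, Lss and Msmo1, fell (4 without PP Treg replicate 1 or PP Treg replicate 2). In edgeR both lost their calls without the IEL Tconv library (adjusted p 0.144 and 0.359) and the LPL Tconv library (0.116 and 0.147), and Msmo1 without any of 8 other single libraries (0.0542 to 0.0855). Of 20 follicular helper genes 2 rose and 3 fell. Of 14 heat shock genes 1, Hspb1, rose and 0 fell, and its call was lost without the IEL (edgeR adjusted p = 0.0807) or the LPL Tconv library (0.0676). Over all genes tested 4.4% were higher and 3.73% lower. The small counts of the cell cycle, sterol, follicular and heat shock lists are therefore not read as a result about these lists.

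**Figure D4:**
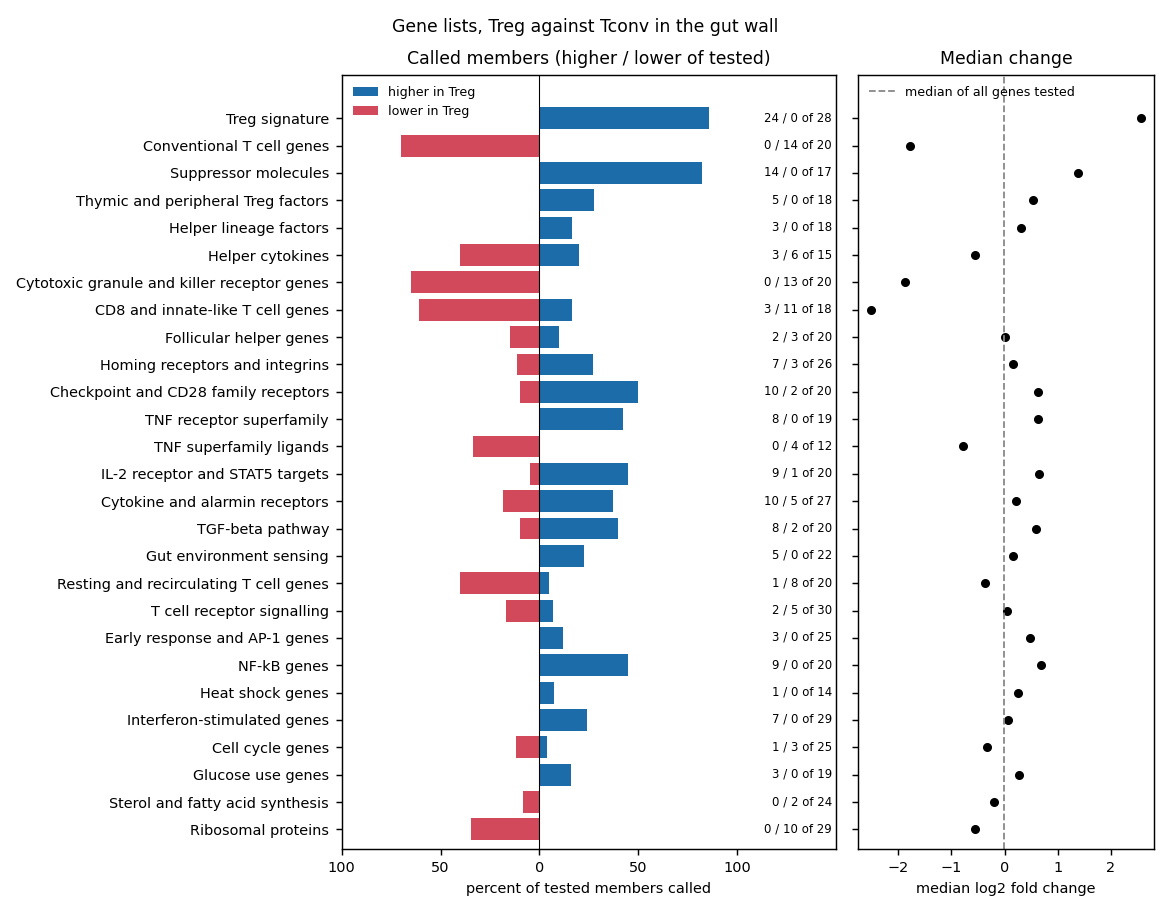
Share of tested members called higher (blue) or lower (red) in Treg of the gut wall, in percent, for 27 gene lists (left, with the counts beside the bars), and the median log2 fold change of each list (right). In the medians the Treg signature lies farthest to the right at 2.56 and the CD8 and innate-like list farthest to the left at -2.50, beside -0.018 over all genes tested.

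Whether the gap between Treg and Tconv differed among the 3 sources was tested in a fit with 1 mean for each source and sort gate. The gap is the log2 difference Treg minus Tconv, and the spread came from Treg replicates only, since each source had 1 Tconv library that was assumed to vary like Treg. Between the mean of IEL and LPL on one side and PP on the other, 14 of 19524 genes passed (0.0717%). The signed difference, IEL and LPL minus PP, was positive for 2 (0.0102%) and negative for 12 (0.0615%). A negative difference is not always a narrower gap, since Pim2 had gaps of -1.99 in IEL and -1.91 in LPL beside -0.22 in PP. Leaving out single Treg libraries gave 5 (without LPL Treg replicate 2) to 41 (without PP Treg replicate 1), 6 without IEL Treg replicate 2, 7 without IEL Treg replicate 3 and 9 without PP Treg replicate 2. Each of the 14 differences rests on the single PP Tconv library.

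Cyp1a1, the Ahr target shown above, was detected in Treg of the intestine proper and not in Treg of PP. Its level was 6.04, 8.31 and 5.64 CPM in IEL Treg, 3.88, 4.88 and 4.18 CPM in LPL Treg and 0 in all 3 PP Treg libraries, beside 0.106, 0 and 1.11 CPM in IEL, LPL and PP Tconv. A count of 0 allows up to 3 counts in each of these libraries. The test of the difference passed (adjusted p = 0.00513, edgeR), and its fitted size of 15.53 depends on the libraries at 0 and is no measured fold. Ahr itself stood at 337, 396 and 28.5 CPM in IEL, LPL and PP Tconv and at means of 379, 388 and 128 CPM in Treg. Its gap was 0.13 ± 0.23 in IEL, -0.07 ± 0.23 in LPL and 2.16 ± 0.26 in PP, so that PP Tconv were the low group (difference -2.14 ± 0.30, adjusted p = 0.0276, edgeR).

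Socs2 and Il2ra, 2 of the 20 genes of the IL-2 receptor and STAT5 list, and Entpd1, which is not on it, had larger gaps in PP. Socs2, a STAT5-induced feedback inhibitor, stood at 17.2, 42.2 and 1.38 CPM in IEL, LPL and PP Tconv and at 35.9 to 70.8 CPM over the 9 Treg libraries. Its gaps were 1.36 ± 0.29, 0.55 ± 0.27 and 5.31 ± 0.39, and the difference of -4.36 ± 0.40 passed (adjusted p = 0.00513, edgeR). Il2ra had gaps of 2.93 ± 0.36, 1.70 ± 0.32 and 5.05 ± 0.40 (difference -2.73 ± 0.39, adjusted p = 0.0329, edgeR), with the lowest Tconv and the highest Treg levels both in PP. Entpd1 had gaps of 1.22 ± 0.19, 1.12 ± 0.19 and 2.84 ± 0.22 (difference -1.67 ± 0.23, adjusted p = 0.0276, edgeR).

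Rgs1, Gadd45g, Emp1, Ctsw and Gbp2b had their lowest Tconv level in PP. Rgs1, a brake on chemokine receptor signals, stood at 2082, 1371 and 95.9 CPM in IEL, LPL and PP Tconv and at 336 to 1821 CPM in Treg, with gaps of -0.59 ± 0.28, -0.78 ± 0.27 and 2.08 ± 0.33 (difference -2.76 ± 0.38, adjusted p = 0.0276, edgeR). Gadd45g, a stress-response gene, stood at 96.0, 79.2 and 3.87 CPM in Tconv, and Emp1, a membrane protein gene, at 28.6, 84.2 and 2.002 CPM. Their differences were -3.10 ± 0.32 and -3.98 ± 0.46. Ctsw, a cathepsin of cytotoxic cells, stood at 198, 183 and 35.3 CPM in Tconv (-2.05 ± 0.25, adjusted p = 0.0159, edgeR) and lost its call without IEL Treg replicate 2 (0.0511) or LPL Treg replicate 2 (0.052). Gbp2b, a guanylate-binding protein gene with a close paralog, was at 0 in PP Tconv and at 63.3 to 90.3 CPM in PP Treg, beside 2.85 and 4.98 CPM in IEL and LPL Tconv and 21.8 to 49.5 CPM in their Treg. Tnfrsf8, the receptor CD30, had the larger gap outside PP, with 2.96, 2.49 and 14.7 CPM in Tconv and 21.9 to 57.5 CPM in Treg (2.36 ± 0.29, adjusted p = 0.0162, edgeR), and lost its call without LPL Treg replicate 2 (0.052). Kcnk5, Pim2 and Hk2 completed the 14 genes, with differences of -2.42 ± 0.31, -1.73 ± 0.23 and -3.76 ± 0.57. These 3 genes and Rgs1, Ahr, Entpd1 and Il2ra were named after their values were seen.

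Between IEL and LPL 1 of 19524 genes passed (0.00512%), Nrp1, a surface receptor of thymus-derived Treg. It stood at 2.32, 39.8 and 11.8 CPM in IEL, LPL and PP Tconv, at 64.9 to 83.1 CPM in IEL Treg, 40.5 to 74.7 CPM in LPL Treg and 138 to 217 CPM in PP Treg. The gaps were 4.94 ± 0.44 in IEL, 0.54 ± 0.32 in LPL and 3.93 ± 0.40 in PP, and LPL Tconv were the high group (difference 4.41 ± 0.49, adjusted p = 0.0396, edgeR). The call was lost without any 1 of the 3 IEL Treg libraries, LPL Treg replicate 2, PP Treg replicate 2 or PP Treg replicate 3, at adjusted p of 0.165, 0.224, 0.115, 0.183, 0.0756 and 0.0747.

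Set beside blood, spleen and lymph node, the gut wall gap differed for 65 of 22976 genes (0.283%) in a fit of all 40 libraries. The signed difference, gut wall minus blood and lymphoid organs, was positive for 11 (0.0479%) and negative for 54 (0.235%). A negative difference can also come from a negative gap in the gut wall, as for Cd7 (-2.05 beside 0.01). Of the 28 Treg signature genes 7 had a negative difference and 0 a positive one, at a median difference of -1.07 beside -0.024 over all genes. Il2ra stood at 1.71, 6.47 and 5.98 CPM in blood, lymph node and spleen Tconv and at 384 to 672 CPM in their Treg, beside 15.8 to 86.4 and 137 to 669 CPM in the gut wall. Its gap was 6.89 ± 0.53 there and 2.94 ± 0.42 in the gut wall (difference -3.96 ± 0.54, adjusted p = 4.72e-04, edgeR). Ikzf2 stood at 6.38, 4.01 and 18.7 CPM in Tconv and at 205 to 599 CPM in Treg of blood, lymph node and spleen. Its gut wall Treg overlapped these at 212 to 572 CPM while its gut wall Tconv were higher (gaps 5.19 ± 0.36 and 2.75 ± 0.30, difference -2.45 ± 0.37, adjusted p = 0.00133, edgeR). Trib1, a pseudokinase that binds Foxp3, stood at 6.08 to 10.4 CPM in Tconv of those sources and at 66.6 to 106 CPM in gut wall Tconv (difference -1.82 ± 0.27, adjusted p = 0.00133, edgeR). Mdfic and Unc93b1, a modulator of transcription and a chaperone of nucleic acid sensors, had differences of -2.68 ± 0.44 and -2.70 ± 0.45. The gap of Unc93b1 was -1.14 in the gut wall and 1.56 in blood and lymphoid organs. Over the alternatives, the difference shrank to as little as -0.295 for Mdfic and -1.189 for Il2ra. Of the 10 named genes of this test, 9 came out weaker with the other 7 sources as 1 class. With the replicate number as a block 7 did. Itgae, Ctla4, Entpd1, Tigit and Swap70 were the other signature genes, with differences of -4.20, -2.42, -2.52, -2.46 and -1.78, named after their values were seen.

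Gpr15 had the larger gap in the gut wall. Its Treg levels overlapped, at 12.2 to 39.5 CPM in the gut wall and 17.4 to 68.6 CPM in blood, lymph node and spleen, while Tconv stood at 0.534 to 1.43 CPM and at 4.60 to 6.47 CPM (gaps 4.80 ± 0.44 and 2.54 ± 0.37, difference 2.26 ± 0.48, adjusted p = 0.0309, edgeR). The call was lost without the IEL (0.0509), the LPL (0.195) or the PP Tconv library (0.0991). Gramd1a, a sterol transfer protein gene, fell in Treg of both regions, by 0.60 ± 0.18 in the gut wall and by 2.02 ± 0.18 in blood and lymphoid organs on the log2 scale (difference 1.42 ± 0.27, adjusted p = 0.0115, edgeR), and its call was lost without the IEL Tconv library (0.0994). Pkd1, Zfc3h1 and Sgk1 had differences of 1.11 ± 0.24, 1.24 ± 0.27 and 1.87 ± 0.41, and all 3 were not called without the IEL Tconv library (adjusted p 0.171, 0.233 and 0.331) or the LPL Tconv library (0.172, 0.158 and 0.312). Single Treg libraries also ended the calls, namely 1 for Pkd1 (IEL Treg replicate 3, 0.0504), 4 for Zfc3h1 (0.0537 to 0.0574) and 7 for Sgk1 (from 0.0506, without LPL Treg replicate 1). The count of differing genes was 20 without the IEL Tconv library and 24 without the LPL Tconv library, and 36 to 43 without each of IEL Treg replicates 1, 2 and 3, LPL Treg replicates 2 and 3 and PP Treg replicates 2 and 3.

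Set beside kidney, liver, lung and pancreas, the gut wall gap differed for 0 of 22976 genes (0.0%) with edgeR, where the smallest adjusted p was 0.116 and 1407 genes had an unadjusted p below 0.05. DESeq2 called 269 genes and limma-voom 140 on the same counts. Il2ra had gaps of 3.11 in the solid organs and 2.94 in the gut wall, and Ikzf2 3.57 and 2.75. The gut wall gaps in these comparisons share their 12 libraries, so the 2 comparisons are not independent.

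**Figure D5:**
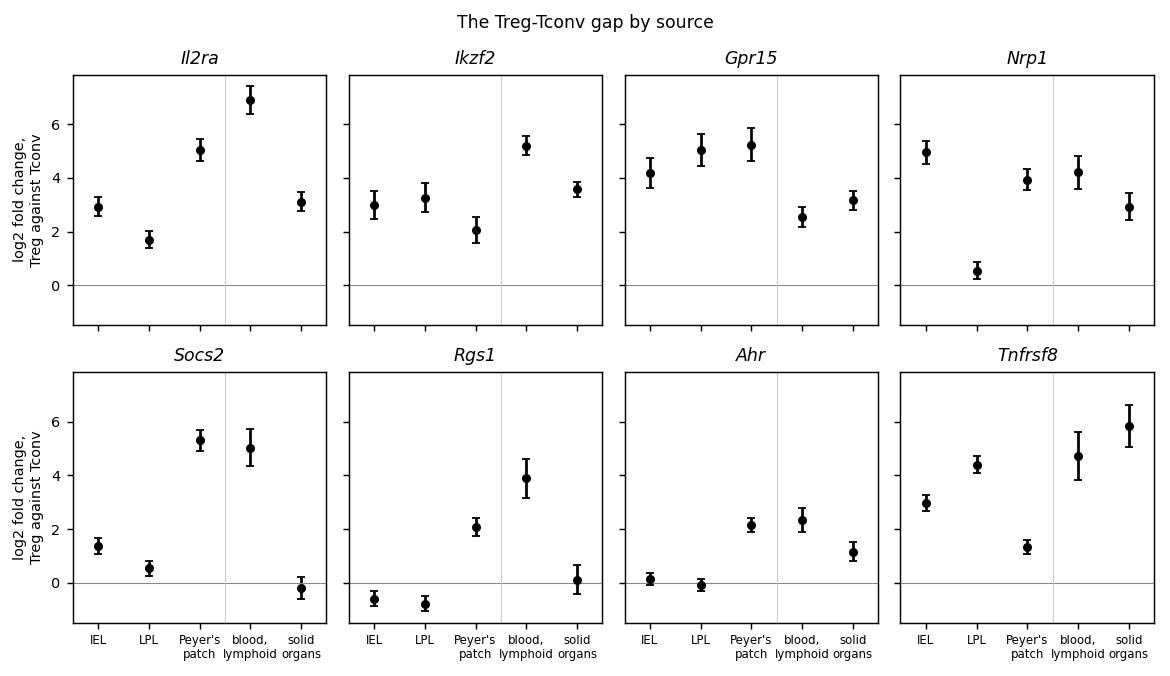
Gap between Treg and Tconv (log2, Treg minus Tconv, with SE) for 8 genes in IEL, LPL and PP (12-library fit) and in blood and lymphoid organs and solid organs (40-library fit). Il2ra rises from 1.70 in LPL to 5.05 in PP and 6.89 in blood and lymphoid organs, Socs2 is highest in PP at 5.31, and Gpr15 lies at 4.19 to 5.23 in the gut wall and at 2.54 in blood and lymphoid organs.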

How the data were processed

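RNA from sorted CD4+ T cells was sequenced with the Lexogen QuantSeq 3′ kit, per the labels' protocols. The authors deposited raw read counts per gene, which were made with FastQC, Trim Galore, STAR, featureCounts and MultiQC on mm10, per the submitters' processing notes, which also name DESeq2 and DESeq. Versions, the annotation release and the strand setting are not given in the sources used here, so reads of overlapping and antisense genes cannot be told apart. In all 55421 genes were counted in 40 libraries, and 55154 gene IDs received a symbol.

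Counts were tested with edgeR 4.0.16 (R 4.3.3; filterByExpr, TMM, robust quasi-likelihood fit, Benjamini-Hochberg adjusted p below 0.05) over all genes that passed the filter. The gut wall fit held the 12 gut wall libraries with terms for cell type and source. Differences between gaps among the 3 sources came from a fit with 1 mean per source and gate, and those against other sources from a fit of all 40 libraries. Levels are CPM with the TMM factors of all 40 libraries. The limit that a count of 0 allows is 3 counts (95%), which covers counting error only. Named genes were, in the gut wall test, the 10 called genes per direction with the smallest p, a log2 fold change of at least 1 and the Tconv library outside the Treg range on the same side in each source. The other tests gave 5 per direction. Genes without a proper symbol, receptor segments and markers of other cells were passed over. Up to 6 members per pathway list (27 lists) and 3 per list of other cell types (14 lists) were added. The members and lists were chosen with earlier results of these data known. The replicate numbers were checked for pairing. Over the 9 gut wall Treg libraries, deviations of same-numbered libraries correlated at -0.496 to 0.228 over 9 pairs and those of different numbers at -0.41 to 0.538 over 18 pairs, so not every same-numbered pair exceeded 0.1 and the numbers were not taken to pair libraries. The numbers of other libraries were not checked. The scripts were tested on simulated data in which Treg and Tconv libraries were drawn with the same spread. That test therefore cannot check whether Tconv libraries vary like Treg libraries. Alternatives were DESeq2 1.42.0, limma-voom (limma 3.58.1), other size factors, no filter, no markers of other cells, replicate blocks, pairs of sources and each library left out in turn. Results for some list members are not reported here.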

Additional observations from a re-analysis of the deposited data

Results flagged for a closer look

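Among 37 sets of values over the 9 Treg libraries, 5 marker sums had 1 library apart from the rest. For independent libraries of 1 kind, chance alone sets about 1 in 20 such groups apart. That rate need not hold for these libraries. B cell markers took 0.0937% and myeloid markers 0.0435% of the counts of PP Treg replicate 1. Plasma cell markers took 0.738%, goblet, Paneth and enteroendocrine markers 0.15%, and erythroid and platelet markers 0.00153% of the counts of LPL Treg replicate 1. The 9 libraries come from 3 sources, and their part in these values was not tested.

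The gap between Treg and Tconv differed between sources by the test of the difference itself (edgeR, adjusted p below 0.05). Between IEL with LPL and PP the log2 differences were 15.53 for Cyp1a1, 2.361 for Tnfrsf8, -4.357 for Socs2, -10.74 for Gbp2b, -3.099 for Gadd45g, -3.978 for Emp1 and -2.053 for Ctsw. The values of Cyp1a1 and Gbp2b depend on libraries at 0 and are no measured folds. Between IEL and LPL the difference was 4.405 for Nrp1. Between the gut wall and blood and lymphoid organs it was 2.264 for Gpr15, 1.419 for Gramd1a, 1.113 for Pkd1, 1.238 for Zfc3h1, 1.871 for Sgk1, -3.957 for Il2ra, -1.822 for Trib1, -2.448 for Ikzf2, -2.681 for Mdfic and -2.698 for Unc93b1. Each source has 1 Tconv library, so whether a gap belongs to the source or to that library cannot be told apart.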

How the results depend on the processing

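The count of genes called between Treg and Tconv in the gut wall, 1306, was 2101 with DESeq2, 553 in the fit of all 40 libraries, 566 without LPL, 364 without IEL and 509 without the 3 libraries highest in enterocyte markers, which leaves 2 Tconv libraries. It ran from 588 (without IEL Tconv) to 1767 (without PP Treg replicate 1) when 1 library was left out. DESeq2 kept 1281 of the 1306 calls, limma-voom 1213 of them, and the fit without IEL Tconv 552. Of 137 named genes called there, 91 stayed called without each single library, and of 194 called list members 94 did. Between IEL with LPL and PP, the 14 calls became 32 without the filter, 164 with DESeq2 and 7 with limma-voom, and 5 to 41 with 1 library left out. No value can be had there without any Tconv library. Between IEL and LPL, the 1 call became 3 without the filter, 67 with DESeq2 and 0 with limma-voom, and 0 to 4 with 1 library left out. No value can be had there without IEL or LPL Tconv. Against blood and lymphoid organs the 65 calls became 530 with DESeq2, 621 with limma-voom and 12 with the other 7 sources as 1 class, and 20 to 97 with 1 library left out. Against solid organs the 0 calls became 269 with DESeq2 and 140 with limma-voom, and 0 to 2 with 1 library left out. For Cyp1a1 the gut wall log2 fold change of -1.436 turned to 5.045 with limma-voom, 6.695 without PP and 6.707 without PP Tconv, ran down to -3.802 without IEL Tconv, and was 1.191, 1.309 and 1.284 without PP Treg replicate 1, 2 or 3. PP Treg libraries hold 0 counts of it. The cause of the other changes was not tested. With the replicate number as a block the counts were 1377, 1, 0, 7 and 0 in the order above, and 1178 in the gut wall with a block of source and number. The numbers were not taken to pair libraries, and whether they mark shared animals is not given in the sources used here. Depth allows at most 3 counts behind a 0 in any library.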

Other observations

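Pdlim4, an adaptor of the actin cytoskeleton, stood at 8.71, 7.81 and 55.2 CPM in IEL, LPL and PP Tconv and at 0 to 1.084 CPM in Treg, with 73 counts over the 9 Treg libraries and 1566 over the 3 Tconv libraries. Fcer1g, the signalling chain of Fc receptors and of innate-like lymphocytes, stood at 20.1, 48.4 and 8.32 CPM in Tconv and at 0.249 to 3.43 CPM in Treg (log2 fold change -5.36 ± 0.75 SE, adjusted p = 0.00133, edgeR). Zbtb16 encodes PLZF, the factor of innate-like T cells, and stood at 3.17, 15.3 and 1.25 CPM in Tconv and at 0 to 0.201 CPM in Treg, a call that was lost without the LPL Tconv library (edgeR adjusted p = 0.0591). Izumo1r, which encodes the folate receptor 4 of Treg and follicular cells, was highest in PP in both cell types, with 492 CPM in Tconv and up to 1169 CPM in Treg (1.17 ± 0.17, adjusted p = 0.00159, edgeR).

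Kdr, the VEGF receptor of endothelial cells, was not among the 3 of 13 endothelial markers that were tested, so it has no p-value. It had 0 counts over the 9 Treg libraries and 201 over the 3 Tconv libraries. Per count total this is at least 266-fold lower, with the floor of 3 counts taken over the group. Cox6a2 stood at 12.4, 33.9 and 4.81 CPM in IEL, LPL and PP Tconv and at 0 to 0.290 CPM in Treg. It is 1 of the 16 genes of the plasmacytoid dendritic cell list that was chosen after values were seen. Of that list Bst2, Irf7, Runx2, Pacsin1, Tlr7 and Tlr9 were not called.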
